A study of Mus musculus with 2 samples.

Results

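The clustered replication-dependent histone genes were taken as every gene in the count tables whose symbol begins with Hist1h, Hist2h, Hist3h or Hist4h, which gave 67 of 32285 genes. They comprised 6 genes for the linker histone H1, 18 for H2A, 18 for H2B, 12 for H3 and 13 for H4. In the GENCODE vM21 annotation of GRCm38, 54 Hist1 genes lay on chromosome 13 between 21715763 and 23934851, 10 Hist2 genes on chromosome 3 between 96219865 and 96270132, 2 Hist3 genes on chromosome 11 between 58948920 and 58956830, and the single Hist4 gene, Hist4h4, on chromosome 6 between 136801553 and 136804415. The Hist1 genes were not evenly spread, since a gap of 1487 kb between Hist1h2bj and Hist1h4h parted 23 of them from the other 31.

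Replication-dependent histone genes supply the protein that packages newly copied DNA, so their mRNA accumulates in S phase and is degraded when replication ends. They typically have no introns, and their mRNA normally ends just after a conserved stem-loop, bound by the protein SLBP, in place of a poly(A) tail. H2A, H2B, H3 and H4 form the nucleosome core and H1 binds the linker DNA, and some of these genes also make polyadenylated mRNA in cells that do not divide. RPA1, the largest part of the RPA complex, coats single-stranded DNA during replication and repair.

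The data are droplet single-cell RNA sequencing of immune cells from the spleen of C57BL/6 mice, with 1 WT library and 1 library of the RPA1 conditional knockout genotype, called CKO here. The series asks about RPA1 in T cells, but the driver of the deletion, the deleted exons, the age and the sex are not given in the sources used here. With 1 library per genotype there was no test between genotypes, cells were not treated as replicates, and every interval is a 95% interval that covers counting error only. Levels are given as CPM, the unique molecular identifiers (UMIs) of a gene or group per 1e+06 UMIs of the same cells. A UMI here marks 1 molecule caught at its 3′ end by oligo-dT, so levels are not scaled to gene length, and a gene whose mRNA lacks a poly(A) tail can be caught less often than one whose mRNA has it.

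After filtering, 12679 WT and 12610 CKO cells remained, with a median of 5520 and 4690 UMIs, and 36 barcodes occurred in both libraries. Cell classes were gated on lists of marker genes, which placed 7431 WT and 9720 CKO cells in the B class, 1241 and 284 in the CD4 T class, 1230 and 83 in the CD8 T class and 383 and 904 in the NK class. The mix of cells therefore differed strongly between libraries, and values over all cells carry that difference. Rpa1 itself stood at 38.2 CPM in WT and 33.7 CPM in CKO cells (ratio 0.881, interval 0.836 to 0.929). In CD4 T cells it was 46.5 and 35.1 CPM (0.754, 0.565 to 0.992), and in B cells 34.8 and 33.0 CPM (0.947, 0.883 to 1.02). A 3′ tag can lie outside a deleted exon, so these values do not check the genotype labels.

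The stem-loop that gives these mRNAs their 3′ end was looked for in the vM21 transcript of each gene, as a hairpin of 6 paired bases around a loop of 4. It was present in 46 of the 67 genes, against 823 of 58797 protein-coding transcript models (1.40%), and in 12 of 13 H4 genes. Of the 21 models without it, 11 hold only the coding part, so the search could not reach their ends. The same 16 bases, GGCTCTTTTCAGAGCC, stood in 26 members of the H1, H2A, H2B and H3 families, while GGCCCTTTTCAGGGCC stood in 7 members, all H4. The sites of 8 members are shown. These genes lead the results and range from genes found mostly in dividing cells to genes found mostly in resting cells. The 16 hairpin bases are in capitals and up to 5 flanking bases in lower case, 5′ to 3′ on the coding strand.
Hist1h3c: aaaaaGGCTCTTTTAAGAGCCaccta
Hist1h2ab: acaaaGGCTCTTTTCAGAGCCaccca
Hist1h2ap: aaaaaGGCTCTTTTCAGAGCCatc
Hist1h2ae: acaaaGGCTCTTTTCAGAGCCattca
Hist1h4d: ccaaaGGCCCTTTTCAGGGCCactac
Hist1h1e: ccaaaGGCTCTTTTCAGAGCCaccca
Hist1h1c: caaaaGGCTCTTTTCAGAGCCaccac
Hist3h2a: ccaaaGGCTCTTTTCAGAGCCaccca

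The hairpin of Hist3h2a, whose UMIs lay mostly in resting cells, was letter for letter that of Hist1h2ab, whose UMIs lay mostly in dividing ones. The bases before the hairpin differed, and so did the length of the annotated transcript beyond it. Whether either bears on expression in resting cells was not tested. The models of Hist1h2ap, Hist1h2ab and Hist1h3c end 3, 11 and 74 bases after the hairpin, whereas those of Hist1h1c, Hist1h1e and Hist3h2a run on for 840, 1153 and 1643 bases. The annotation release the authors counted with is not given in the sources used here and may not be vM21.

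The promoter sequences of RefSeq (GRCm38.p6) matched 61 members with 62 windows of 250 bases upstream of the start, and 18 of these windows overlapped that of another member. CCAAT, read on both strands, was in 82.3% of members' windows and in 33.8% of all 32851 promoters. It was in every H1, H2A and H2B window but in 3 of 12 H4 windows. TATAAA was in 46.8% of members' windows against 12.4% of all, and the octamer ATTTGCAT in 22.6% against 1.60%. The octamer was in 7 of 17 H2A and 7 of 17 H2B windows and in none of the 6 H1, 10 H3 and 12 H4 windows. Promoters of 3 members are shown because 1 of them belongs to a gene found almost only in dividing cells, 1 to a gene found mostly in resting cells and 1 holds all 3 motifs. Capitals mark matches of these motifs on either strand, and a match is a description of the letters, not a shown binding site.
Hist1h3c (chr13:23745522-23745771, minus strand): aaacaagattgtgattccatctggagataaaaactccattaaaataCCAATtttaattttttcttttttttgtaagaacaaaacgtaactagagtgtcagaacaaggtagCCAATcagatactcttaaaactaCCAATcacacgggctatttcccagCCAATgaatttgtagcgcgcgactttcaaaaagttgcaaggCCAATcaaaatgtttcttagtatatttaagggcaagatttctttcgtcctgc
Hist3h2a (chr11:58954435-58954684, plus strand): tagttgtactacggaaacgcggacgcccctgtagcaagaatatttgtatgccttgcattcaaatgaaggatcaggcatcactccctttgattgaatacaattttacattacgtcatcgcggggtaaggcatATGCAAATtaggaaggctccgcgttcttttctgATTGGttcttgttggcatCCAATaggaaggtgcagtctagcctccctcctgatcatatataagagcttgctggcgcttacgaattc
Hist1h2ab (chr13:23750838-23751087, plus strand): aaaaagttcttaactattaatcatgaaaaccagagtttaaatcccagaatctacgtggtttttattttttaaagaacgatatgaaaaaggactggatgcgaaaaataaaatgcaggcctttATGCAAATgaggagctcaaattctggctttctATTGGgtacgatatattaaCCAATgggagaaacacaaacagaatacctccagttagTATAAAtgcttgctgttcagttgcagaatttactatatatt

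Hist1h3c had 5 CCAAT matches and neither of the other motifs, Hist3h2a had 2 CCAAT matches and the octamer, and Hist1h2ab had 2 CCAAT matches, the octamer and TATAAA. The octamer was thus present in an H2A gene with few and in an H2A gene with most of its UMIs in resting cells. No entry of the promoter table matched Hist1h2ap.

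Expression was concentrated in few members. Of the 67 genes, 58 had at least 50 UMIs over both libraries, 5 had 1 to 49 (Hist1h3h, Hist1h2ao, Hist1h1t, Hist1h2ah and Hist2h2aa2) and 4 had none (Hist1h2aa, Hist1h2ba, Hist1h2bq and Hist1h4m). The 10 leading members held 68.2% of the UMIs and the 30 leading members 94.1%. Hist1h1t, Hist1h2aa and Hist1h2ba, which are known as testis histone genes, had 16, 0 and 0 UMIs. Near-identical copies limit what can be said of single genes: in the median member 55.2% of the 31-base words of the transcript also occur in another member, and in 9 members over 90%. How reads matching several genes were counted is not given in the sources used here, so Hist1h2ap (93.4% of its words also in Hist1h2ao) and Hist1h2br (99.8% also in Hist1h2bq) are uncertain. So are Hist1h2be and Hist1h1e, whose annotated gene spans overlap by 496 bases on the same strand. Of the words of Hist1h1e, 9.42% also occur in transcripts of Hist1h2be.

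The summed level of the 67 genes was 1002 CPM in WT cells (interval 996 to 1009) and 1508 CPM in CKO cells (1499 to 1517), a ratio of 1.504. At least 1 member UMI was found in 89.7% of WT and 91.5% of CKO cells. After each cell was thinned to 1000 UMIs, which left out 118 WT and 71 CKO cells, these shares were 42.0% and 48.3%. No class in the spleen is known to lack these genes, so no background share from free RNA could be set beside them.

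Most cells carried a few UMIs and a small number carried far more. Cells with under 20 member UMIs made up 98.9% of WT and 98.2% of CKO cells, with a median of 3 UMIs in both. They held 51.0% of the WT and 41.7% of the CKO member UMIs. From 100 to below 200 UMIs there were only 4 WT and 9 CKO cells, and cells with at least 100 UMIs are called histone-high here, a threshold chosen after this distribution was seen. There were 72 histone-high WT cells (0.568%, 0.445 to 0.715%) and 126 CKO cells (0.999%, 0.833 to 1.19%), a ratio of shares of 1.76 (1.31 to 2.38). These cells held 46.1% of all WT and 55.7% of all CKO member UMIs.

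**Figure D1:**
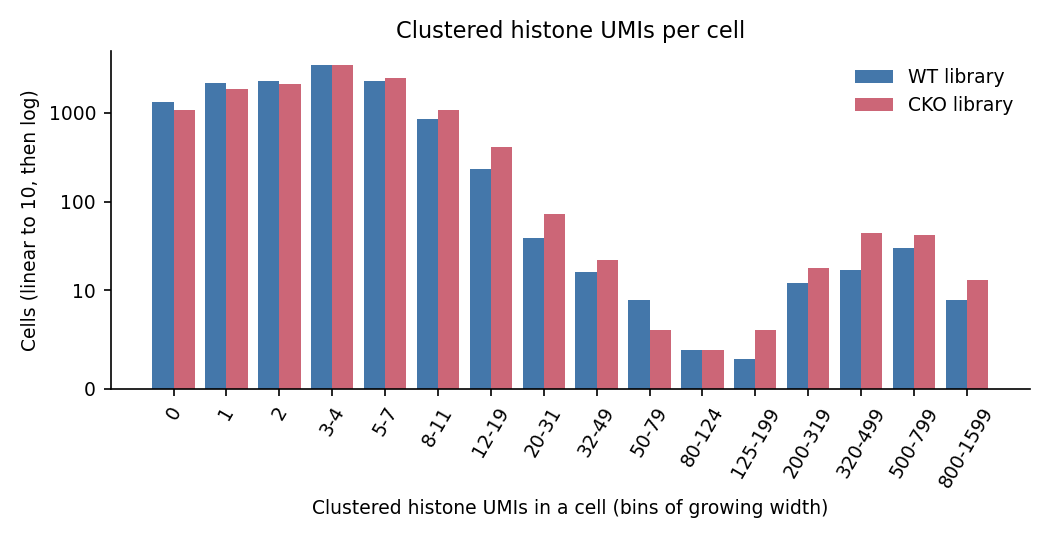
Number of cells (vertical axis, linear up to 10 and logarithmic above) by clustered histone UMIs in the cell (horizontal axis, bins of growing width) for the WT and CKO libraries. Most cells hold a few UMIs, 4 WT and 9 CKO cells lie from 100 to below 200, and a second group of cells reaches 1156 UMIs in WT and 1438 in CKO.

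A histone-high WT cell held from 104 to 1156 member UMIs with a median of 536.5, and a CKO cell from 111 to 1438 with a median of 469.5. The ranges of the 2 libraries overlapped over nearly their whole length. A median of 41 different members was detected per histone-high cell in both libraries, so these cells expressed the clusters broadly and not through single genes. They were also deep, with a median of 23128.5 UMIs in WT and 19652.5 in CKO cells, against 5484 and 4635 in cells with under 20 member UMIs. The members made up a median of 2.36% of the UMIs of a histone-high WT cell and 2.30% of those of a CKO cell. Without the cells that Scrublet marked as doublets, the ratio of shares was 2.17.

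The dividing cells were gated on 2 lists of 20 genes each that contain no member, 1 of S phase genes and 1 of G2/M genes, with at least 3 genes of the leading list detected. Cells led by the S list (395 WT, 460 CKO) had a median of 6 member UMIs in both libraries. Cells led by the G2/M list (148 WT, 204 CKO) had a median of 22.5 in WT and 35 in CKO, with 12997 and 14362 CPM. Cells led by either list were 4.28% of WT and 5.27% of CKO cells and held 51.7% and 60.2% of the member UMIs. Resting cells, with at most 2 genes of both lists together, held 46.6% and 38.3%. In cells led by the S list the members stood at 1913 CPM in WT and 3178 CPM in CKO (1.66). In B cells led by it they stood at 1873 and 2044 CPM (1.09), and with the gate set on cells thinned to 1000 UMIs the ratio was 2.82, so the level inside this gate depended on how it was set. The ratio of 4.95 in NK cells led by it was 0.916 without the top cell of each library.

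The 2 lists had to be read together to find the cells with the most histone mRNA. Where at least 8 genes of the S list and at least 8 of the G2/M list were detected, the median cell held 376.5 member UMIs in WT (98 cells) and 448.5 in CKO (144 cells), and 70.4% and 82.6% of these cells were histone-high. Where at least 8 S genes but at most 4 G2/M genes were detected, the medians were 8.5 and 8 UMIs in 40 and 52 cells, and none was histone-high. Where at least 8 G2/M genes but at most 2 S genes were detected, the medians were 13 and 15 in 19 and 15 cells, again with no histone-high cell. In cells with no gene of either list the medians were 2.5 and 3. The cells with at least 8 genes of both lists were also the deepest, with medians of 23618.5 and 20562.5 UMIs, against 16330.5 and 13769 where the S list stood without the G2/M list. Scaled to each cell's own depth, the median cell stood at 19542.5 and 21151 CPM where both lists were detected and at 478 and 567 CPM where the S list stood without the G2/M list. High histone mRNA thus went with the joint detection of both lists.

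In B cells the same split held, and the libraries stood further apart. Of B cells with at least 8 genes of each list, 22 of 39 were histone-high in WT (56.4%, 39.6 to 72.2%) and 59 of 70 in CKO (84.3%, 73.6 to 91.9%), with medians of 264 and 396 member UMIs. The median depth of these cells was higher in WT (22552 UMIs) than in CKO (17077.5 UMIs). The intervals of the shares did not overlap, but each rests on 1 library.

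The 67 genes did not behave as 1 group between resting and dividing cells. The share of a gene's UMIs that lay in resting cells, over both libraries, ran from 1.54% to 91.1% with a median of 38.0% over the 58 genes with at least 50 UMIs. It was above 50% for 21 genes and under 10% for 6. Resting cells were 93.4% of WT and 92.4% of CKO cells, and none of the 58 genes reached that share. At the low end were 3 H3 genes, Hist1h3b (1.54%), Hist1h3c (1.87%) and Hist1h3g (2.11%), with the H2A gene Hist1h2af (1.92%), the H2B gene Hist1h2bm (6.45%) and the H2A gene Hist1h2ab (8.31%). At the high end were both Hist3 genes, Hist3h2a (91.1%, 90.2 to 92.0%) and Hist3h2ba (89.1%, 87.8 to 90.3%), with Hist2h2be and the H3 gene Hist2h3c1 (both 84.5%), Hist2h4 (83.8%) and Hist4h4 (83.4%). Most UMIs of these 6 genes came from resting cells, which were also most of the cells. By level, 4 of them were still higher in histone-high than in resting cells in both libraries, by 2.20 and 2.504 times for Hist2h2be, 3.51 and 2.65 for Hist2h3c1, 3.57 and 2.62 for Hist2h4, and 2.43 and 3.20 for Hist4h4, in WT and CKO. The Hist3 genes were not, with 0.811 and 0.668 for Hist3h2a and 1.47 and 0.975 for Hist3h2ba. Oligo-dT can miss mRNA that ends at the stem-loop, so these levels do not show whether Hist3h2a is replication-dependent. Among the genes named in this text, Hist1h3b, Hist1h3g, Hist1h2bm, Hist2h2be, Hist2h3c1, Hist2h4, Hist4h4, the neighbours of Hist1h2ap and those given for single calls in a class lie outside the 30 with the most UMIs and were chosen after their values were seen.

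**Figure D2:**
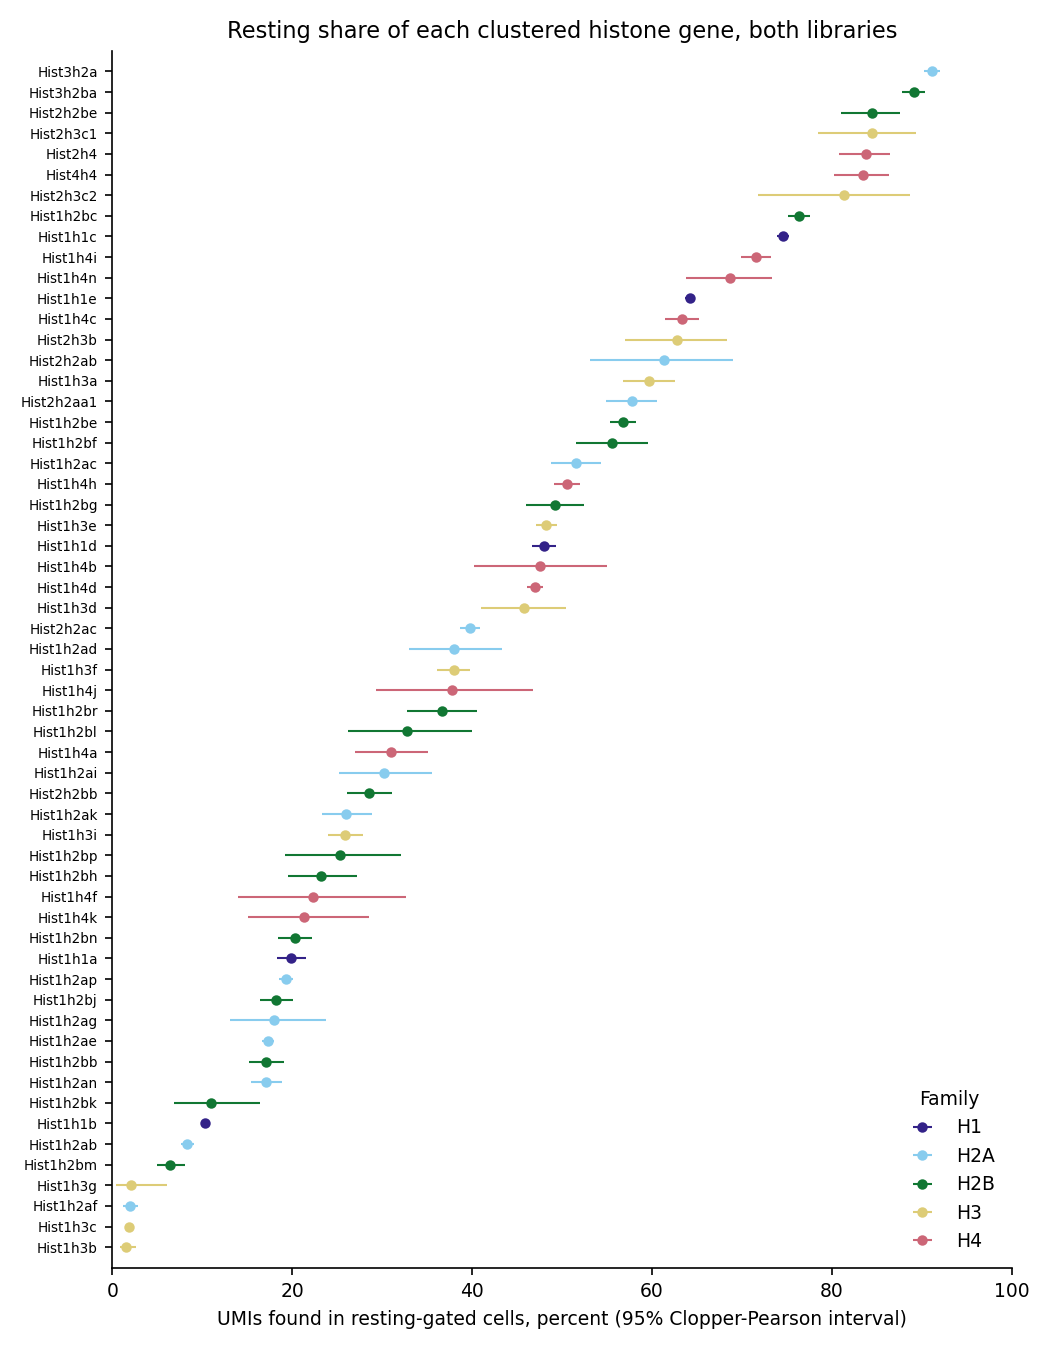
Percent of each gene's UMIs that lay in resting-gated cells of both libraries (horizontal axis, points with 95% Clopper-Pearson intervals), for the 58 genes with at least 50 UMIs, coloured by family. The values run from 1.54% for Hist1h3b to 91.1% for Hist3h2a, and each family spans a wide range.

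The contrast is also given in levels. Histone-high cells were picked by their summed member UMIs, so members that make up much of that sum must be high in them. The levels here and for the families below therefore describe the members and are not separate support. Hist1h3c, an H3 gene, stood at 1.74 CPM in resting and 2453 CPM in histone-high WT cells, and at 1.13 and 2190 CPM in CKO cells. Hist1h1e, the linker histone gene with the most UMIs, stood at 122 and 1927 CPM in WT and at 182 and 2027 CPM in CKO cells. In histone-high cells Hist1h3c was thus above Hist1h1e, and in resting cells it was far below it. The ratio of the 2 genes thus differed between the 2 kinds of cell. Hist3h2a stood at 23.0 CPM in resting and 18.7 CPM in histone-high WT cells, and at 32.2 and 21.5 CPM in CKO cells, so it was no higher in cells full of other histone mRNA.

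In the H2A family, Hist1h2ae stood at 14.2 CPM in resting and 2495 CPM in histone-high WT cells, Hist1h2ab at 2.78 and 1123 CPM and Hist2h2ac at 22.2 and 967 CPM. Hist1h2an had 17.1% of its UMIs in resting cells, Hist1h2ae 17.3%, Hist1h2ap 19.3% and Hist2h2ac 39.8%. Hist1h2ac (51.6%) and Hist2h2aa1 (57.8%) lay just above an even split. The family thus held genes of either extreme, Hist1h2af and Hist3h2a.

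In the H2B family, Hist1h2bc had 76.4% and Hist1h2be 56.8% of their UMIs in resting cells. Hist1h2bb, Hist1h2bj, Hist1h2bn and Hist2h2bb had 17.1%, 18.2%, 20.3% and 28.5%. Hist3h2ba stood at 15.4 CPM in resting and 22.7 CPM in histone-high WT cells and at 15.6 and 15.2 CPM in CKO cells, while Hist1h2bj stood at 2.09 and 309 CPM in WT and at 2.61 and 293 CPM in CKO cells. Both libraries gave the same contrast between these 2 genes.

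In the H3 family, Hist1h3e (48.2%), Hist1h3f (37.9%), Hist1h3i (25.9%) and Hist1h3a (59.7%) lay far above Hist1h3c (1.87%). Hist1h3e was the H3 gene with the highest resting level, at 24.2 CPM in WT and 26.3 CPM in CKO cells, and stood at 725 and 697 CPM in histone-high cells. In the H4 family no gene with at least 50 UMIs was under 21.3%. Hist1h4d had 47.0%, Hist1h4h 50.6%, Hist1h4c 63.4% and Hist1h4i 71.6% of its UMIs in resting cells. Hist1h4d stood at 38.7 CPM in resting and 1094 CPM in histone-high WT cells and at 38.2 and 1172 CPM in CKO cells.

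Among linker histone genes, Hist1h1c had 74.6% and Hist1h1e 64.2% of their UMIs in resting cells, Hist1h1d 48.0%, Hist1h1a 19.9% and Hist1h1b 10.4%. Hist1h1b, with 20505 UMIs the most abundant member after Hist1h1e with 31732, stood 284 times higher in histone-high than in resting WT cells, and Hist1h1c, which has most of its UMIs in resting cells, 7.59 times higher. In CKO cells these ratios were 224 and 6.74. H1 genes made up 44.7% of member UMIs in resting WT cells and 32.3% in histone-high WT cells. In CKO cells these shares were 47.0% and 32.9%. The H2A family showed the opposite, with 16.1% of resting and 31.2% of histone-high member UMIs in WT and 17.4% and 32.4% in CKO cells. H3 went from 8.69% to 18.7% in WT and from 7.22% to 16.6% in CKO cells. H4 went from 16.9% to 8.20% and from 14.7% to 9.19%, and H2B from 13.7% to 9.59% and from 13.7% to 8.99%. Core histone proteins are used in equal numbers in the nucleosome, but oligo-dT capture does not count all of their mRNAs alike, so these shares are not shares of histone mRNA.

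The resting share went with the annotated length of the transcript beyond the stem-loop. In 18 members whose model runs at least 200 bases past it, the median resting share was 60.1%, with a range from 23.2% to 91.1%. In 20 members whose model ends within 100 bases of it, the median was 20.8%, with a range from 1.54% to 68.7%. The 4 members between had a median of 40.1% and the 16 without a stem-loop in the model 27.3%. Over the 42 members with a stem-loop and at least 50 UMIs, Spearman's rho between the bases after the stem-loop and the resting share was 0.535, given as a description since the genes share libraries, cells and capture. An AATAAA after the stem-loop was found in 13 of them, with a median resting share of 56.8% against 39.8% in the other 29. A 3′ protocol catches polyadenylated molecules, and whether longer annotated ends and capture account for this pattern was not tested.

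The resting level itself differed between classes. NK cells were highest, at 806 CPM in WT (764 to 850) and 907 in CKO (877 to 938). Monocytes or macrophages (663 and 705 CPM) and B cells (655 and 714 CPM) followed, and their intervals overlapped in both libraries. Neutrophil-lineage cells stood at 439 and 421 CPM, and the T classes lowest, with 343 and 345 CPM in CD4 T, 332 and 334 CPM in CD8 T and 356 and 371 CPM in the other T cells. The order was the same in both libraries except between these overlapping classes, and the intervals of the 3 T classes overlapped within the CKO library. Linker histones led in NK cells, with Hist1h1e at 297 and 354 CPM against 60.8 and 51.6 CPM in CD4 T cells, and H1 genes were 60.1% and 59.99% of their resting member UMIs.

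Between libraries the resting levels were close in every class. The CKO over WT ratio was 1.13 in NK cells (1.06 to 1.20), 1.09 in B cells (1.07 to 1.11), 1.06 in monocytes or macrophages (0.971 to 1.17), 1.01 in CD4 T cells (0.919 to 1.10), 1.01 in CD8 T cells (0.863 to 1.17), 1.04 in other T cells (0.943 to 1.15) and 0.958 in the neutrophil lineage (0.793 to 1.16). The ratio over all resting cells was 1.28, above that of each class, and the 2 libraries differed in how many of their resting cells were T cells, the class with the lowest level. Of the 52 members with at least 20 UMIs in resting B cells, 4 were at least 1.5-fold higher in CKO (Hist2h3c2, Hist1h2bl, Hist1h2ap and Hist1h2ag), where 3.38% of all 12943 genes were, and 3 were at least 1.5-fold lower (Hist1h4j, Hist1h3c and Hist1h4b), where 3.41% of all genes were. Their median ratio was 1.09 against 1.03 over all genes. In resting NK cells 5 of 27 members were higher (Hist1h2ap, Hist1h2bj, Hist1h2ae, Hist1h2ac and Hist1h2bc) beside 5.25% of all genes, and 0 were lower beside 4.63%. In resting CD4 T cells 3 of 25 members were higher (Hist1h2ap, Hist1h2be and Hist1h2bc) beside 5.87%, and 5 were lower (Hist2h2be, Hist1h1b, Hist1h4i, Hist1h1d and Hist1h3c) beside 8.83%. In resting other T cells 2 of 21 were higher (Hist1h2ap and Hist1h2bc) beside 7.3%, and 5 were lower (Hist2h2ac, Hist4h4, Hist1h1b, Hist1h1d and Hist1h3e) beside 7.94%. Resting CD8 T cells had 4 of 22 higher beside 13.2% and 4 lower beside 14.6%, resting monocytes or macrophages 3 of 16 higher beside 6.53% and 3 lower beside 6.07%, and the resting neutrophil lineage 0 of 4 higher and 1 lower, each beside 11.1%. Most of these calls rest on few UMIs, such as 6 and 26 for Hist1h2ag in resting B cells and 2 and 22 for Hist1h2ac in resting NK cells.

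**Figure D3:**
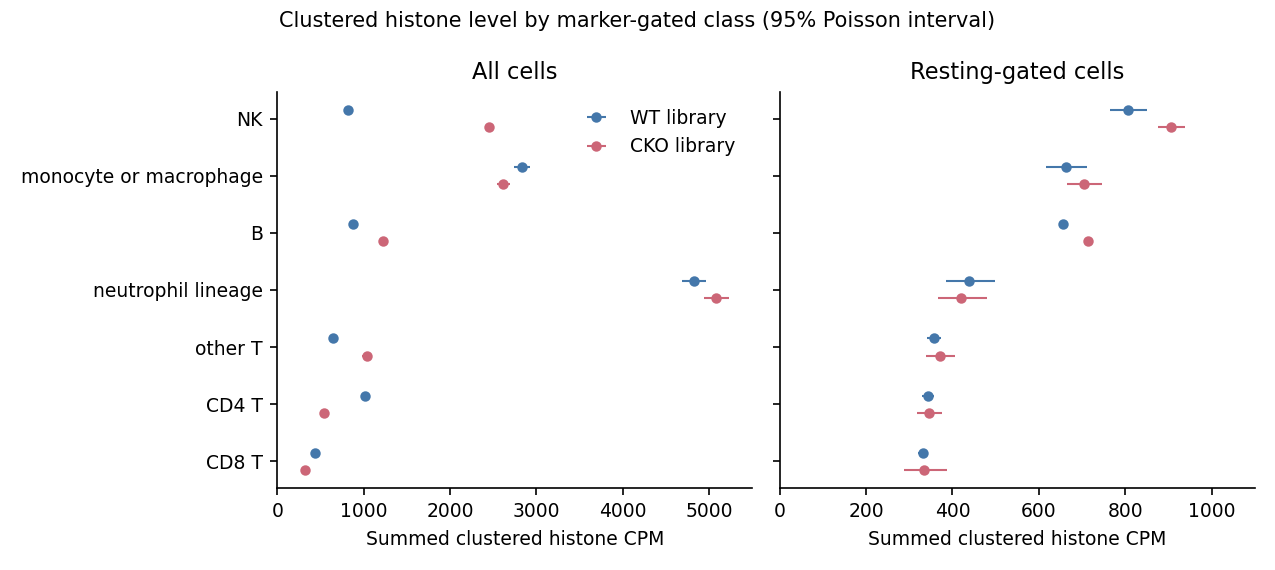
Summed CPM of the 67 genes (horizontal axis) with 95% Poisson intervals in 7 marker-gated classes of the WT and CKO libraries, for all cells (left) and for resting-gated cells (right), on different scales. The libraries lie furthest apart in NK, CD4 T, other T and B cells when all cells are summed, and lie within 1.13-fold of each other in every class of resting cells.

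NK cells showed the largest ratio among the 7 classes. Their summed level over all cells was 819 CPM in WT (779 to 861) and 2449 CPM in CKO (2403 to 2496), a ratio of 2.99. The difference lay in few cells: 11 of 904 CKO NK cells were histone-high (1.22%, 0.609 to 2.17%), with 227 to 827 member UMIs each, and these held 63.6% of the class's UMIs. None of 383 WT NK cells was histone-high, which at 3 counts allows a share of up to 0.783% (exact upper bound 0.959%). Without these 11 cells the levels were 819 and 930 CPM and the ratio 1.14 (1.07 to 1.21). Cells led by the G2/M list were 1 of 383 in WT and 19 of 904 in CKO. The 11 cells carried a median of 8 NK markers, 1 B marker and 1 T marker.

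In NK cells, 35 of 42 members with at least 20 UMIs were at least 1.5-fold higher in CKO and none was lower, where 6.44% and 4.72% of 9715 genes were. The minimum was set on both libraries summed, so some members passed it only through their CKO counts, such as Hist1h2ab (2 and 338 UMIs) and Hist1h2bm (1 and 77 UMIs). Such members could hardly be called lower, so the count restates the few high CKO cells and is not separate support. The members' median ratio was 3.54 against 0.998 over all genes. The linker gene Hist1h1b stood at 16.03 CPM (30 UMIs in 19 cells) in WT and at 338 CPM (1455 UMIs in 61 cells) in CKO. The H3 gene Hist1h3c had 6 UMIs in 6 WT cells and 619 UMIs in 23 CKO cells, 3.21 and 144 CPM. Both have few of their UMIs in resting cells. The H2A gene Hist1h2ae had 10.7 and 185 CPM, and Hist1h2af, with 0 and 72 UMIs, was at least 10.4-fold higher when the WT group is set to 3 counts. The resting share was computed over all cells of both libraries, these NK cells among them, and is low for members rich in dividing cells. A split of the members by it was thus largely fixed in advance and only describes them. Of 26 tested members with at most 50% of their UMIs in resting cells, 25 were past 1.5-fold, with a median ratio of 7.18, and of 16 members above 50%, 10 were, with a median of 1.96. The latter ran from 0.935 (0.655 to 1.35) for Hist3h2a, at 25.1 and 23.5 CPM, to 5.44 (1.997 to 20.7) for Hist1h2ac, from 4 and 50 UMIs. Between them lay Hist1h1c at 122 and 152 CPM (1.24, 1.07 to 1.45), Hist1h1e at 301 and 467 CPM (1.55, 1.41 to 1.71) and Hist1h2bc at 8.02 and 21.2 CPM (2.64, 1.52 to 4.91).

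**Figure D4:**
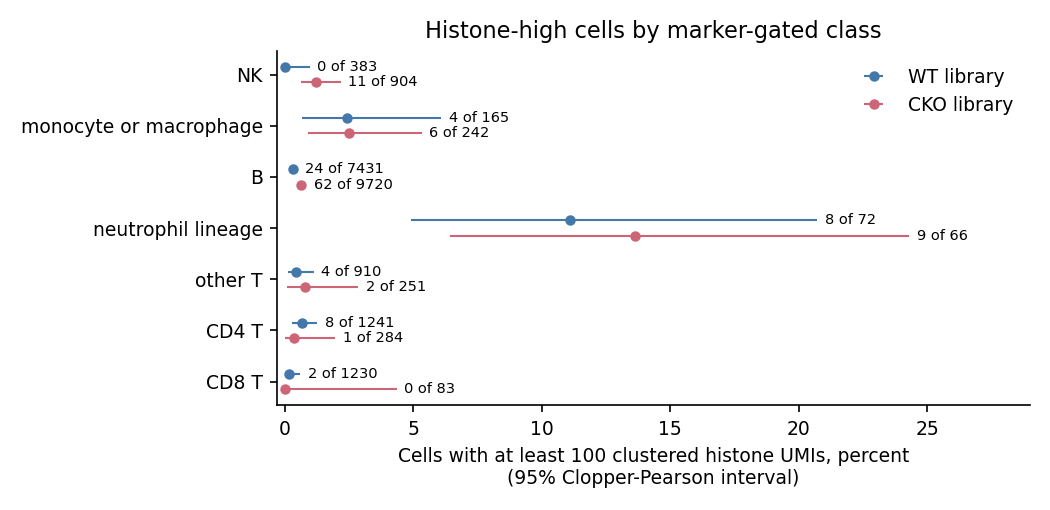
Percent of cells with at least 100 clustered histone UMIs (horizontal axis, 95% Clopper-Pearson intervals) in 7 marker-gated classes of the WT and CKO libraries, with the counts printed beside each point. The share is highest in the neutrophil lineage, and the counts in NK cells are 0 of 383 and 11 of 904.

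B cells, the largest class, had a summed level of 878 CPM in WT (869 to 888) and 1224 CPM in CKO (1214 to 1233), a ratio of 1.39. Histone-high B cells were 24 of 7431 in WT (0.323%, 0.207 to 0.480%) and 62 of 9720 in CKO (0.638%, 0.489 to 0.817%), a ratio of shares of 1.97 (1.21 to 3.31). Without them the levels were 656 and 715 CPM (1.09). Cells led by the G2/M list were 0.727% of WT and 1.16% of CKO B cells, and cells led by the S list 2.65% and 3.08%. After thinning to 1000 UMIs the G2/M shares were 0.446% and 0.743% and the S shares 0.270% and 0.258%, so the order of the S shares did not survive thinning while that of the G2/M shares did.

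In B cells, 27 of 58 members were at least 1.5-fold higher in CKO, where 4.02% of 13212 genes were, and 0 were lower, where 3.44% were. The members' median ratio was 1.39 against 1.03. With a stricter class gate 12 members were higher and 1 lower, given without the share of all genes under that gate. Those with the most UMIs among the 27 had under 20% of their UMIs in resting cells: Hist1h1b at 59.3 and 109 CPM (1.84, 1.75 to 1.93), Hist1h2ae at 48.7 and 80.5 CPM (1.65, 1.57 to 1.75), Hist1h3c at 27.9 and 52.5 CPM (1.88, 1.76 to 2.02) and Hist1h2ap at 28.9 and 67.6 CPM (2.34, 2.19 to 2.496). The WT UMIs of Hist1h3c came from 108 of 7431 cells. The resting share counts these same B cells, so it is not separate support. The linker genes Hist1h1e and Hist1h1c, found in 3382 and 2700 WT cells, had ratios of 1.30 (1.26 to 1.34) and 1.07 (1.03 to 1.12). Hist3h2ba stood at 16.2 and 16.02 CPM (0.991, 0.894 to 1.10).

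CD4 T cells went the other way. Their summed level was 1011 CPM in WT (990 to 1033) and 540 CPM in CKO (505 to 576), a ratio of 0.534. Histone-high cells were 8 of 1241 in WT, holding 66.3% of the class's member UMIs, and 1 of 284 in CKO, holding 37.1%. Without them the levels were 351 and 343 CPM (0.977, 0.892 to 1.07). The shares themselves were 0.645% (0.279 to 1.27%) and 0.352% (0.00891 to 1.95%), so their difference was not detectable at these cell numbers, and the CKO level of the class changed with a single cell. Cells led by the G2/M list were 15 of 1241 in WT and 0 of 284 in CKO, which at 3 counts allows a share of up to 1.06% (exact upper bound 1.29%).

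Of 38 members in CD4 T cells, 25 were at least 1.5-fold lower in CKO, where 9.82% of 10091 genes were, and 1 was higher (Hist1h2bc, 11.7 and 19.9 CPM), where 6.09% were. A member can pass the minimum through the WT histone-high cells alone, so this count is not separate from those cells. Hist1h1b stood at 112 and 22.8 CPM (0.204, 0.144 to 0.281), from 33 WT and 3 CKO cells. Hist1h3c stood at 77.8 and 29.2 CPM (0.376, 0.276 to 0.502), from 26 WT and 4 CKO cells. The H4 gene Hist1h4d, detected in 310 WT and 80 CKO cells, stood at 72.7 and 71.3 CPM (0.981, 0.801 to 1.19).

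The other classes had too few cells for single members to be read firmly. CD8 T cells stood at 442 CPM in 1230 WT cells and 326 CPM in 83 CKO cells (0.737, 0.634 to 0.853), with 2 and 0 histone-high cells. Of 30 members, 3 were at least 1.5-fold higher beside 12.5% of all genes, and 16 were lower beside 14.8%. Other T cells, those with T markers but no clear CD4, CD8, regulatory or gamma-delta identity, stood at 646 and 1034 CPM (1.60), where 1 CKO cell held 43.3% of the UMIs. Of 36 members, 18 were at least 1.5-fold higher, beside 8.13% of all genes, and 2 were lower, beside 7.02%. A stricter gate gave 0.533, so the direction of this class depended on the gate. Monocytes or macrophages stood at 2832 and 2619 CPM (0.924, 0.886 to 0.964), and at a ratio of 0.487 under the stricter gate, with 4 of 165 and 6 of 242 histone-high cells. Of their 39 members, only Hist1h2ap was at least 1.5-fold higher, beside 5.59% of all genes, and 10 were lower, beside 6.04%. The neutrophil lineage, whose early precursors divide, had the highest level of these classes, 4826 and 5084 CPM (1.05, 1.01 to 1.10), with 8 of 72 and 9 of 66 cells histone-high. Of its 34 members, 2 were higher, beside 9.41% of all genes, and 4 were lower, beside 10.5%. Without histone-high cells this lineage stood at 674 and 451 CPM, a ratio of 0.669 (0.581 to 0.770), so the direction turned. The same ratio was 0.935 (0.803 to 1.08) in CD8 T cells, 1.08 (0.987 to 1.19) in other T cells and 1.05 (0.959 to 1.14) in monocytes or macrophages.

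Inside histone-high cells the libraries were close. Their summed level was 22394 CPM in WT and 23609 CPM in CKO cells. Of 56 members with at least 20 UMIs, 5 were at least 1.5-fold higher in CKO, beside 12.2% of 9436 genes, and none was lower, beside 6.24%. The members' median ratio of 1.06 was that of all genes, 1.06. Hist1h2ae stood at 2495 and 2483 CPM (0.995, 0.958 to 1.03), Hist1h1e at 1927 and 2027 CPM (1.05, 1.01 to 1.10) and Hist1h1c at 655 and 658 CPM (1.01, 0.932 to 1.08). Hist1h1b, the most abundant member in these cells, stood at 3717 and 4156 CPM (1.12, 1.08 to 1.15) and Hist1h3c at 2453 and 2190 CPM (0.893, 0.858 to 0.929). The share of cells that were histone-high had a ratio of 1.76. These cells were picked by at least 100 member UMIs, which limits how far the summed level inside them can differ. The ratio of shares and the level inside are therefore not weighed against each other.

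The 5 members past the fold were Hist1h4k, Hist1h2ad, Hist1h4b, Hist1h2ap and Hist4h4, with ratios from 1.55 to 1.64. Hist1h2ap, an H2A gene on chromosome 13 at 21833026 to 21833507, was the only 1 of them with more than 200 UMIs in these cells. It had 2245 UMIs in all 72 WT cells and 5654 UMIs in all 126 CKO cells, 1309 and 2097 CPM (1.60, 1.53 to 1.68). Its share of a histone-high cell's member UMIs ran from 2.95% to 10.4% with a median of 5.96% in WT, and from 2.65% to 16.3% with a median of 9.01% in CKO. The ranges overlapped, while the middle parts did not: the WT quartiles were 4.99% and 6.79% and the CKO quartiles 7.72% and 10.4%. The same order was seen in histone-high B, T and myeloid cells. Histone-high plasma cells and cells in no class, also present in both libraries, were not read separately. The medians were 6.71% and 8.71% in 24 and 62 B cells, 5.99% and 10.2% in 16 and 3 T cells, and 4.78% and 10.5% in 13 and 18 myeloid cells. In the 11 CKO NK cells it was 7.79%. Among B cells alone its level was 1366 and 2047 CPM (1.499, 1.37 to 1.64).

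Hist1h2ap was also higher in resting CKO cells, which lie outside the histone-high group. In resting B cells it stood at 13.8 CPM (508 UMIs in 472 cells) in WT and 22.3 CPM (1037 UMIs in 883 cells) in CKO, a ratio of 1.62 (1.45 to 1.80). In resting NK cells it stood at 10.1 and 18.8 CPM (1.86, 1.09 to 3.38), in resting monocytes or macrophages at 11.1 and 23.5 CPM (2.12, 1.11 to 4.33) and in resting CD4 T cells at 1.95 and 8.39 CPM from 15 and 14 UMIs (4.31, 1.93 to 9.58). The values in resting CD8 T, other T and neutrophil-lineage cells rested on 2 to 24 UMIs, with intervals that spanned 1. Its near-copy Hist1h2ao had 7 and 10 UMIs in histone-high cells, and the part of read assignment between the copies was not tested. Its neighbours on the chromosome were read for the same pattern. In histone-high cells Hist1h4n, next to it, had a ratio of 1.43 (0.904 to 2.32) from 28 and 63 UMIs and Hist1h2br 1.48 (1.17 to 1.89) from 100 and 233 UMIs. Hist1h4h, across the gap of 1487 kb, had 1.45 (1.31 to 1.60). Over all resting cells, whose mix of classes differed between libraries, Hist1h2ap had a ratio of 2.20. There Hist1h4n had 0.877 (0.679 to 1.13), Hist1h2br 1.24 (0.947 to 1.64) and Hist1h4h 1.30 (1.196 to 1.41). In resting cells neither Hist1h4n nor Hist1h2br thus shared the ratio of Hist1h2ap. In histone-high cells 3 members had a higher ratio than Hist1h2ap, and the lower bounds of their intervals were 1.08, 1.18 and 0.952.

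**Figure D5:**
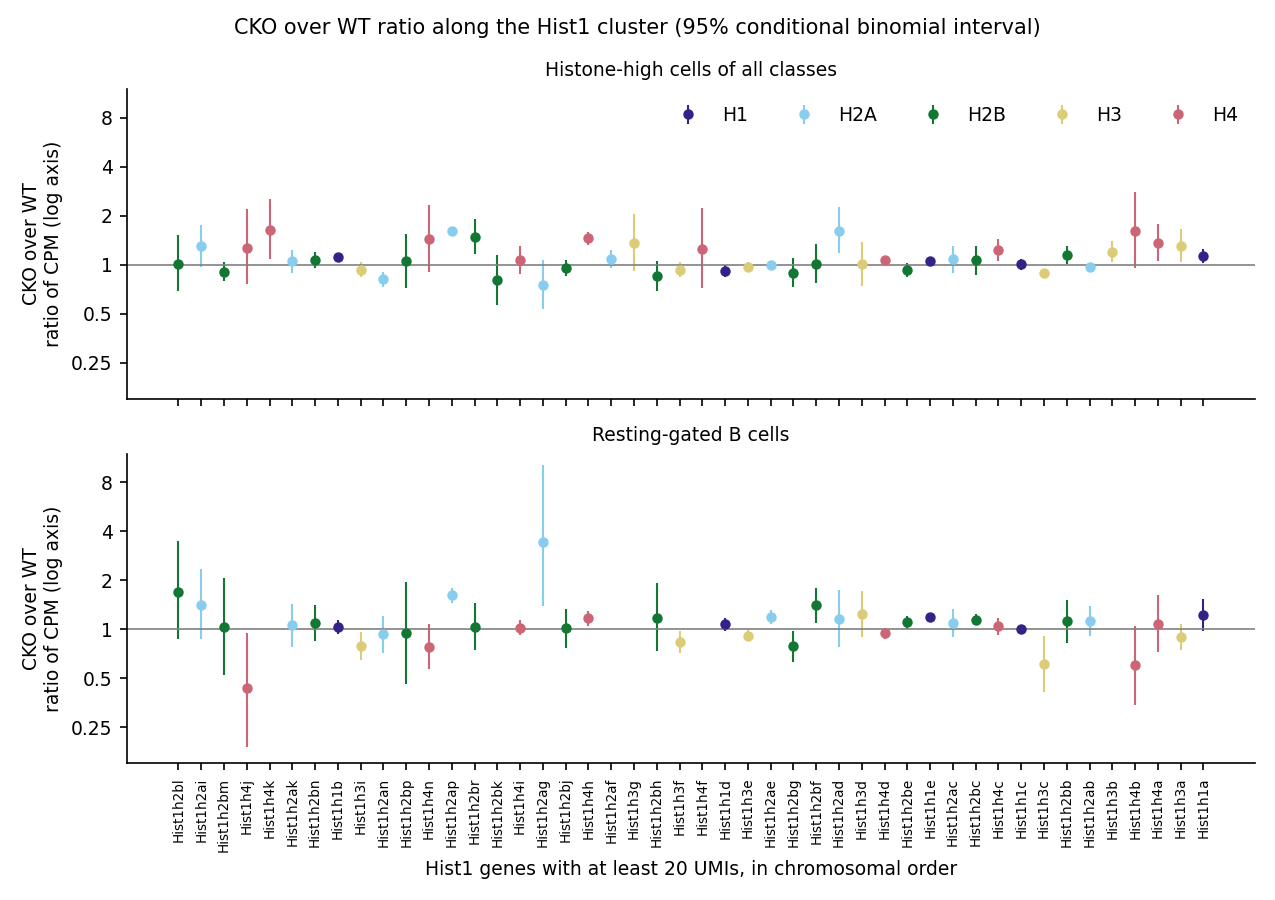
CKO over WT ratio of CPM (vertical axis, logarithmic, with 95% conditional binomial intervals) for Hist1 genes in chromosomal order with at least 20 UMIs, in histone-high cells (top) and resting-gated B cells (bottom), coloured by family. Most points lie near 1 in both panels, and Hist1h2ap is at 1.60 and 1.62.

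The other genes of the histone pathway were taken from 3 lists. Of 11 replication-independent variants, which are also used outside S phase, H3f3a and H3f3b were the most abundant in resting WT cells. These H3 variants, used throughout the cell cycle, stood at 2389 and 1452 CPM in resting and 2536 and 1844 CPM in histone-high WT cells. H2afz went from 358 to 2998 CPM and H2afx, the variant phosphorylated at DNA breaks, from 33.8 to 650 CPM between resting and histone-high WT cells. H2afy and H2afj went from 257 to 441 and from 258 to 321 CPM. The linker variant H1fx rose most, from 0.277 to 30.9 CPM, on 20 and 53 UMIs. Between libraries, 1 of 10 variants tested in B cells was past 1.5-fold, the linker variant H1fx at 1.74 and 0.599 CPM (72 and 32 UMIs; 0.344, 0.219 to 0.528). In NK cells 2 of 9 were past it, Cenpa, the centromere H3, at 31.001 and 53.03 CPM and H2afx at 37.4 and 86.1 CPM. In CD4 T cells 2 of 9 were, in the lower direction, H2afx at 51.2 and 24.0 CPM and the linker variant H1f0 at 15.7 and 7.60 CPM. In histone-high cells 1 of 10 was, H1fx again, at 30.9 and 15.2 CPM.

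Of the list for histone gene transcription and 3′ processing, Slbp, the stem-loop binding protein, stood at 57.0 CPM in resting and 268 CPM in histone-high WT cells, and at 69.7 and 296 CPM in CKO cells. Npat, the activator of histone gene transcription, stood at 18.2 and 20.99 CPM in WT and at 17.3 and 36.0 CPM in CKO cells. None of 14 list genes tested in B cells and none of 13 in NK cells was past 1.5-fold between libraries, with median ratios of 1.07 and 1.07. In CD4 T cells Lsm10, of the histone pre-mRNA processing particle, was lower at 26.4 and 17.5 CPM, and in histone-high cells Npat was higher at 20.99 and 36.0 CPM (1.71, 1.16 to 2.59), each 1 of 13. The most abundant list genes in resting WT cells were Arl6ip5 (121 CPM), Cpsf2 (64.7 CPM), Casp8ap2 (63.3 CPM) and Slbp. Arl6ip5 stands here only as an entry of the list, and a part in histone mRNA processing was not shown for it.

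Among histone chaperones and enzymes of histone deposition, Asf1b went from 4.58 CPM in resting to 163 CPM in histone-high WT cells and from 4.52 to 166 CPM in CKO cells. Chaf1a, of the assembly factor that follows the replication fork, went from 2.13 to 70.0 and from 2.97 to 82.3 CPM. Nap1l1, a chaperone of H2A and H2B, went from 304 to 577 and from 355 to 655 CPM, and Npm1, the most abundant of the list, from 1011 to 1125 and from 842 to 1349 CPM. Between libraries 0 of 15 were past 1.5-fold in B cells. In NK cells 2 of 15 were, both higher, Asf1b at 14.4 and 22.1 CPM (1.53, 0.9896 to 2.44) and Chaf1a at 7.48 and 11.4 CPM (1.52, 0.827 to 2.99), with intervals that spanned 1. In CD4 T cells Chaf1a was higher (3.29 and 5.85 CPM, from 28 and 10 UMIs) and Asf1b lower (9.40 and 5.85 CPM), and in histone-high cells Ipo4, an importin of histones, was higher from 4 and 17 UMIs.

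The lists used for the cycling gates moved with the members and were read beside them. In NK cells 19 of 19 G2/M genes tested and 9 of 18 S genes were at least 1.5-fold higher in CKO, beside 6.44% of all genes. Their median ratios were 9.57 and 1.69. In CD4 T cells 20 of 20 G2/M genes and 7 of 15 S genes were lower, beside 9.82% of all genes, with medians of 0.246 and 0.679. In both classes such genes could pass the minimum through the few dividing cells of 1 library. The counts therefore restate those cells and are not separate support. In B cells 9 of 20 G2/M genes and 1 of 20 S genes were higher, beside 4.02% of all genes, with medians of 1.49 and 1.22. In histone-high cells 0 of 20 G2/M genes and 2 of 20 S genes were higher, beside 12.2% of all genes. Whether these cells differ in the number dividing or in the time spent in a phase was not tested.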

How the data were processed

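Whole-number UMI counts per gene and barcode were deposited by the authors as 1 matrix per library, with no normalization, per the file headers, which name Cell Ranger 6.0.2. The submitters' processing notes list mm10, Cell Ranger 5.0.0 and Seurat 4.0.3. Their annotation release and their handling of reads that match several genes are not given in the sources used here. Barcodes had already been reduced to called cells, since the lowest held 500 (WT) and 501 (CKO) UMIs. WT held 84240951 UMIs in 13291 barcodes and CKO 76910129 in 12958.

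Cells with 200 to 6000 genes and under 10% mitochondrial UMIs were kept. A class needed UMIs from at least 3 own markers (4 for plasma cells) and at most 2 of another list. Within related classes the other list could have more if the own list had at least 2 times as many. Related were B and plasma, T and NK, and monocytes or macrophages, conventional dendritic and neutrophil-lineage cells. Plasma cells had no condition on B markers. Other cells of mixed lineage were left out as possible doublets. Scrublet (scanpy 1.11.5) was run as an alternative only. Since class names were rebuilt from the counts, they need not match the study's own. Raw UMIs were summed per class and library and given as CPM with exact Poisson intervals, shares with exact Clopper-Pearson intervals, and ratios of CKO over WT with exact conditional binomial intervals. UMI sums of 0 were set to 3 counts where a fold was given as a lower bound. A gene was past the fold at 1.5 in either direction with at least 20 UMIs over both libraries. This minimum can be met by 1 library alone, and such a gene tends to be called in the direction of that library. To compare shares, each cell was also thinned to 1000 UMIs. The alternatives were no cell filter, a stricter class gate, other gates, minimums and folds, leaving out the cell with the most member UMIs, and levels per cell. No test between genotypes was made, because there was 1 library of each.

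Members and lists were chosen with earlier results of these data known. Values are printed for members with at least 50 UMIs, up to 30 by UMIs, and for up to 5 genes of a list with the most UMIs and any past the fold. Stem-loops were searched in GENCODE vM21 transcripts and motifs in RefSeq promoters. Scripts ran under Python 3.11.15 with scipy 1.17.1, pandas 2.3.3, matplotlib 3.10.9 and numpy 2.4.6 and were tested on simulated data.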

Additional observations from a re-analysis of the deposited data

Results flagged for a closer look

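The summed level of the 67 genes differed in opposite directions in 2 classes. The CKO over WT ratio was 2.99 in NK cells and 0.534 in CD4 T cells, and the difference between these ratios was not tested, since there was 1 library per genotype. In both classes the ratio came close to 1 without histone-high cells, at 1.14 and 0.977.

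Cells placed in no class, which enter none of the class comparisons, also carried these genes. The 984 WT cells of this kind stood at 1392 CPM and the 881 CKO cells at 2156 CPM. Of them, 890 WT and 810 CKO cells had markers of more than 1 lineage, and 15 and 27 were histone-high. Their median depth was 10369 and 9739 UMIs, and how many hold more than 1 cell was not tested.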

How the results depend on the processing

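The alternatives gave 220 values, of which 116 planned and 16 added ones stayed close to the reported value, 75 and 7 moved, and 5 and 1 are called reversed, which here means that a ratio past 1.5-fold in either direction came to lie on the other side of 1. Without that condition on size, 18 of 162 ratios lay on the other side of 1. All values below are CKO over WT ratios unless said otherwise, and the cause was not tested in any case. Resting-gated cells alone, an alternative chosen after seeing the data, gave member levels of 1.28 over all cells, 1.09 in B, 1.01 in CD4 T (reversed from 0.534), 1.01 in CD8 T, 1.04 in other T, 1.13 in NK, 1.06 in monocytes or macrophages and 0.958 in the neutrophil lineage. Without the cell filter the member level was 1.52 over all cells, 1.43 in B and 1.26 in neutrophils, and without cells marked by Scrublet 1.65, 1.49, 1.36 and, in monocytes, 0.777. The stricter class gate, with 4 own markers, gave 1.23 in B, 0.399 in CD4 T, 0.854 in CD8 T, 0.533 in other T (reversed), 2.11 in NK, 0.487 in monocytes and 1.36 in neutrophils. Without the top cell of each library the level was 0.389 in CD4 T, 1.24 in other T and 2.79 in NK. Per cell it was 1.38 over all cells, 0.468 in CD4 T, 1.48 in other T and 1.10 in neutrophils.

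Hist1h1c moved to 1.23 over all cells and 1.19 in neutrophils without Scrublet doublets, to 1.08 per cell, to 1.12 in other T without the top cells, and under the stricter gate to 1.02 in B, 0.873 in other T, 1.03 in NK, 0.563 in monocytes and 1.16 in neutrophils. In S-gated cells the member level of 1.66 over all cells was 1.54 without the cell filter, 1.90 without Scrublet doublets, 1.73 without the top cells and 1.54 per cell. In S-gated B cells 1.09 became 1.17, 1.13 and 1.02 without the filter, without the top cells and per cell, and 2.82 with the gate on thinned cells. In S-gated NK cells 4.95 became 0.591 under the stricter class gate and 0.916 without the top cells, both reversed, and 9.88 with a gate of 5 genes. In S-gated other T cells 1.73 became 1.36 without the filter, 2.51 without Scrublet doublets, 1.24 per cell, 1.41 with the thinned gate, and, reversed, 0.245 under the stricter gate and 0.493 without the top cells. The share of S-gated cells was 0.914 over all cells, 0.953 in B and 10.9 in other T after thinning, and 1.38 over all cells and 1.44 in B with 5 genes. The percent of member UMIs in cycling-gated cells was 54.0% in WT and 62.6% in CKO without the filter, 48.0% and 60.9% without Scrublet doublets, 45.8% and 50.8% with the thinned gate and 49.6% and 58.3% with 5 genes.

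The counts of members past the fold also moved. They are given without the share of all genes under the same setting, so they show only how far the counts moved and not an excess among members. At 2-fold they were 7 higher in B, 0 higher in CD4 T, 0 higher and 9 lower in CD8 T, and 0 higher and 5 lower in monocytes. Under the stricter gate they were 12 higher and 1 lower in B, 1 higher and 8 lower in CD8 T, and 0 higher and 25 lower in monocytes. With a minimum of 5 UMIs they were 1 lower in B, 5 higher in CD4 T, 6 higher and 27 lower in CD8 T and 4 higher in monocytes. With a minimum of 50 UMIs they were 1 higher and 8 lower in CD8 T and 6 lower in monocytes. The ratio of shares of histone-high cells ran from 1.59 to 2.17 over all cells and from 1.71 to 2.51 in B cells under thresholds of 50 and 200 UMIs, no filter and no Scrublet doublets, all chosen after seeing the data.

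No paired analysis was possible because each genotype had 1 library. Counting error is the only error measured, so differences between the 2 samples and between genotypes cannot be told apart. Depth limits single members in small classes, where 1 CKO cell held 43.3% of the UMIs of the other T class, and capture by oligo-dT limits any comparison of levels between genes.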
